A study of Homo sapiens with 24 samples.

Results

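Secreted and membrane proteins enter the endoplasmic reticulum (ER) through a small set of complexes, and 34 genes for their subunits were followed in Panc-1 cells that were induced to express an acinar transcription factor. The genes were chosen by name and grouped by complex: 6 for the signal recognition particle (SRP), 2 for its receptor, 4 for the Sec61 channel, 2 for Sec62 and Sec63, 4 for the translocon-associated protein complex (TRAP), 2 for the TRAM proteins, 5 for signal peptidase and 9 for the oligosaccharyltransferase (OST). Of the 34 genes, 33 were analysed, against 13519 genes in the tables of all 3 lines, and TUSC3 was not analysed here. Panc-1 cells, an established human line, derive from a pancreatic ductal adenocarcinoma (PDAC). They were transfected with the empty Tet-One plasmid or with one that carries rat MIST1 or mouse PTF1a, each with a myc tag, behind a tetracycline-regulated promoter, and puromycin-resistant clones were screened for induction, so that line and clone cannot be told apart. Cells of the lines Tet-One, Tet-MIST1 and Tet-PTF1a were kept without doxycycline (Dox) as Control or given 1 µg/ml Dox for 72 h, all in serum depleted of tetracycline, with 4 biological replicates of each, and polyadenylated RNA was sequenced in 24 libraries. Tet-MIST1 cells were labelled passage 33 and the cells of the other lines passage 32, and the labels give no other difference between the groups.

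SRP binds the signal sequence of a protein as it leaves the ribosome and brings the ribosome to the SRP receptor on the ER membrane. The ribosome then docks on Sec61, the channel, whose neighbours TRAP and TRAM help particular chains to enter, while Sec62 and Sec63 serve chains that arrive after synthesis or open the channel poorly. Signal peptidase removes the signal sequence, and OST transfers a ready-made sugar chain to asparagine residues. Acinar cells of the exocrine pancreas pass very large amounts of digestive enzymes along this route. MIST1 and PTF1a are acinar basic helix-loop-helix factors, which bind the E box (CANNTG).

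The promoters of 6 genes are shown because the results turn on them. The study examined SEC61B, SEC62 and SEC63, SRPRB had the largest change in Tet-MIST1, and TRAM2 and MAGT1 had the largest in Tet-PTF1a. Each is the 250 bases before the RefSeq start of the gene on GRCh38.p14, 5′ to 3′ on the strand of the gene. This build differs from hg19, the build of the deposited tables, whose positions are given with the genes below. By the shift in position of SEC61A1 and SEC62 on the same chromosome, the SRPRB window falls inside the hg19 span of that gene. It therefore belongs to a start farther along SRPRB than the one listed for the counted gene. The promoters lie at chr3:133805565-133805814 (SRPRB, plus strand), chr9:99222032-99222281 (SEC61B, plus), chr3:169966557-169966806 (SEC62, plus), chr6:107958209-107958458 (SEC63, minus), chr6:52577061-52577310 (TRAM2, minus) and chrX:77895436-77895685 (MAGT1, minus). Capitals mark E boxes (CANNTG) and the letters CCAAT and CCACG on either strand (read in reverse as ATTGG and CGTGG). These letters, with a spacer between them, make up the ER stress element.
SRPRB: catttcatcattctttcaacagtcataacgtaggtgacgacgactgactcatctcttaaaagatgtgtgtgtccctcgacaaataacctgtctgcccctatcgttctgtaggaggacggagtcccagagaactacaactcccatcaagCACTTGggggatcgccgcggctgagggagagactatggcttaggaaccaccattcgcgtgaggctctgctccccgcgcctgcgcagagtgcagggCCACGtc
SEC61B: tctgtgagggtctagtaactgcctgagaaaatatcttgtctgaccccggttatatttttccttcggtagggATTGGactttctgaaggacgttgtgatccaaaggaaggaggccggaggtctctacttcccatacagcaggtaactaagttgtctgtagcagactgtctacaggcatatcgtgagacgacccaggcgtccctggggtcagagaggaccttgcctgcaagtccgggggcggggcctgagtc
SEC62: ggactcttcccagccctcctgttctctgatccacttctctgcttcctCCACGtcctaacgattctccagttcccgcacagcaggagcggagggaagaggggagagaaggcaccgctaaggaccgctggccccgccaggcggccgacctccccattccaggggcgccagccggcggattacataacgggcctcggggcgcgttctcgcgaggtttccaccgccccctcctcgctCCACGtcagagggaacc
SEC63: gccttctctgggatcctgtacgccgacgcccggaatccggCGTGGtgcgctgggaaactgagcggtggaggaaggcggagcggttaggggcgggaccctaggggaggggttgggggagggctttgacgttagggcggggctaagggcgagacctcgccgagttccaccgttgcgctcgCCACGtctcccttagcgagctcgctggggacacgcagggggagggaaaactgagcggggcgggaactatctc
TRAM2: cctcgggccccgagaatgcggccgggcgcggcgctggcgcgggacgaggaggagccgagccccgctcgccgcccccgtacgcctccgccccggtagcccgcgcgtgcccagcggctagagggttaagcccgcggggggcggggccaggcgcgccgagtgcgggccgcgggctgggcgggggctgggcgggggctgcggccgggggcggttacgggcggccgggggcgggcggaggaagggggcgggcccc
MAGT1: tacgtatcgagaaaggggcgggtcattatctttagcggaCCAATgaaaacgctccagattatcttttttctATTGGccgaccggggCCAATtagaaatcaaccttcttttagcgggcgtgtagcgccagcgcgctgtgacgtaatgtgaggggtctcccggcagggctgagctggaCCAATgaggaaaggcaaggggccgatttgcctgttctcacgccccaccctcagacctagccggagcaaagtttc
Of these 6 windows, only that of SRPRB held an E box, at -102 from its RefSeq start, and that of TRAM2 held none of the marked letters. The SEC62 and SEC63 promoters each held CCACG at 2 places, the SEC61B promoter held CCAAT once, and the MAGT1 promoter held CCAAT at 4 places. RefSeq promoters were matched to 28 of the 33 genes; SRPR, TRAM1, SPCS1, RPN1 and STT3B were not matched. Among the 28, an E box occurred in 15 (53.6%), close to its share of 53.0% over all 10505 promoters of the same length. E boxes of the form CAGCTG, the form CATATG and the form CATCTG, all of them also counted as CANNTG, occurred in 2, 1 and 1 of the 28 (7.14%, 3.57% and 3.57%), against 12.7%, 0.98% and 7.89% of all promoters. The letters CCAAT occurred in 13 (46.4%, against 34.6%) and CCACG in 18 (64.3%, against 44.8%), and the whole ER stress element, CCAAT and CCACG with 9 bases between, in 0 (against 0.133%). Of the matched genes that were higher with Dox in Tet-MIST1, 3 of 8 held an E box, and of the other matched genes 12 of 20. In Tet-PTF1a the numbers were 8 of 13 and 7 of 15. A match describes these letters in this window and is not a binding site.

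Reads counted on listed genes ranged from 33402628 to 42510942 per library in Tet-MIST1, from 35863825 to 41648040 in Tet-One and from 17210989 to 43018494 in Tet-PTF1a. Panc-1 keeps ductal traits, and the ductal markers KRT8, KRT18, KRT19 and SOX9 were counted in every library, the lowest at 2223 reads, while KRT7 had 25 to 263 reads. In bulk RNA, fewer cells of a kind and less RNA per cell cannot be told apart. The acinar markers PRSS1, PTF1A and BHLHA15 were listed in the Tet-PTF1a table. There, PTF1A had at most 2 reads in a Control library and at least 53 in a Dox library. The induced sequence is that of the mouse, so reads of the plasmid and of the human PTF1A gene cannot be told apart in these counts. In Tet-PTF1a, PRSS1 had at most 4 reads in Control and at least 49 with Dox. The counts of BHLHA15, the human MIST1 gene, were 2 to 22 in the Tet-PTF1a table. These raw counts overlapped, with at most 16 in a Control library and at least 12 in a Dox library. They are not scaled for the different library sizes of this line. Scaled to library size (CPM), BHLHA15 ran from 0.0993 to 0.721 with a median of 0.53. On that scale every Dox library lay above every Control library, at a low level. In Tet-MIST1, where the induced sequence is that of the rat, the label was not checked by this gene. Other markers of acinar, blood and endothelial cells were not analysed here. Dox replicate 1 of Tet-One stood apart from the other libraries. Its genes under 2 kb of exon had a median log2 deviation of 0.56 from the mean of their group, and its genes of 4 kb or more one of -0.41. Dox replicate 1 of Tet-MIST1 did the same to a smaller extent, with medians of 0.19 and -0.15. Several results that rest on these 2 libraries are therefore given with and without them. Values given once use all libraries and may also depend on these 2.

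All 33 genes were transcribed in all 3 lines without Dox. Levels are given in RPKM, that is, CPM (read counts put on a common library size with TMM factors, within each line) per kb of exon. RPN1, an OST subunit, had the highest mean level in Tet-MIST1 Control, 228 ± 1.05 RPKM (SD, n = 4), above 98.2% of the genes of that line. SEC61A2, the second gene for the channel pore, had the lowest in each line, between 1.92 and 2.34 RPKM. Its paralog SEC61A1 stood at 140 RPKM in Tet-MIST1, 102 in Tet-PTF1a and 109 in Tet-One Control. The ratio of SEC61A1 to SEC61A2 per length was 62.9 ± 3.08 in Tet-MIST1, 43.7 ± 3.25 in Tet-PTF1a and 57.0 ± 2.99 in Tet-One Control libraries (SD, n = 4). TRAM2 stood at 12.8 RPKM in Tet-MIST1, 24.2 in Tet-PTF1a and 30.1 in Tet-One Control.

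**Figure D1:**
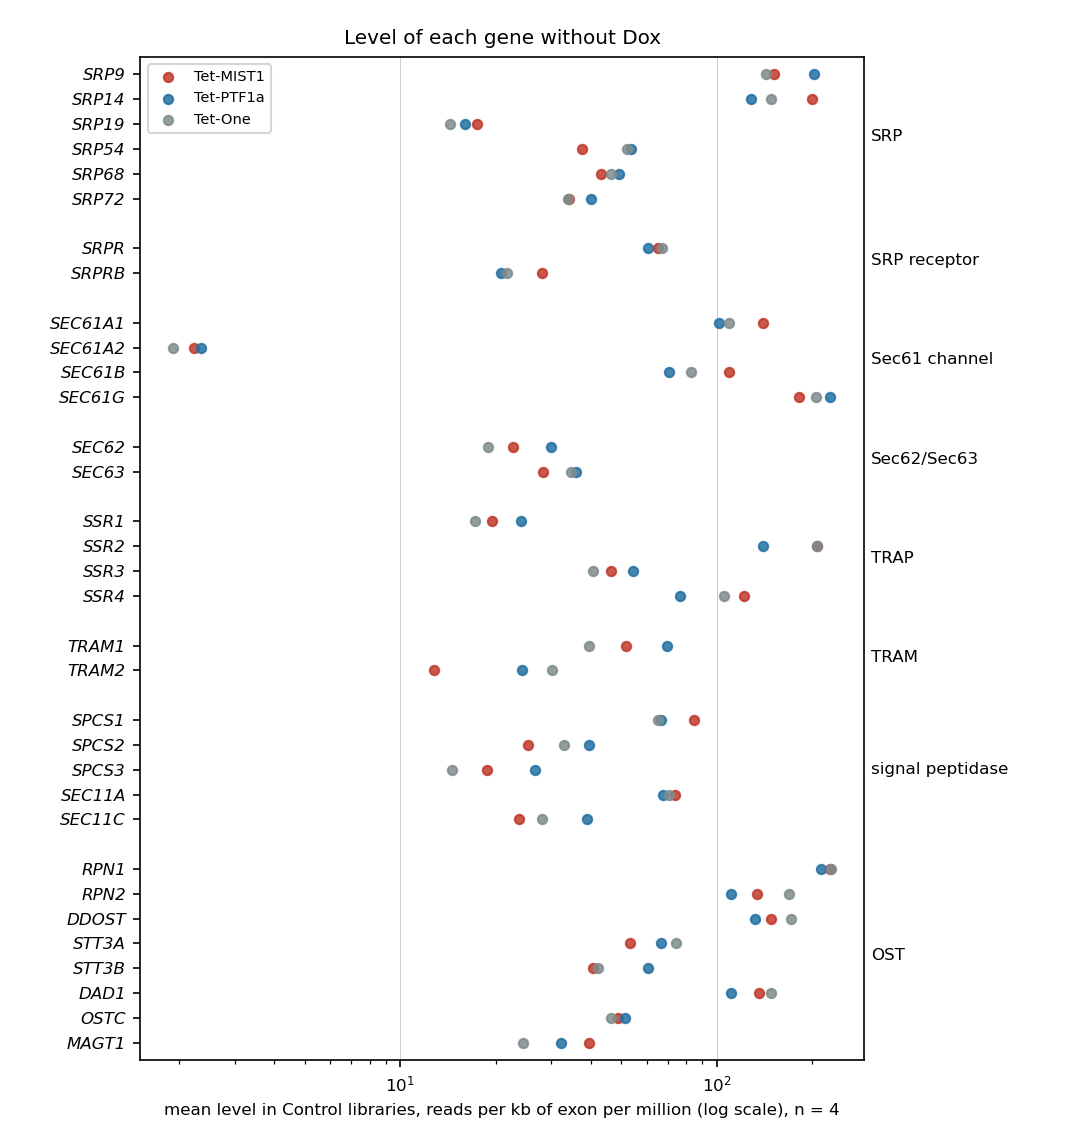
Mean level of each gene in the 4 Control libraries of each line, in RPKM on a log axis, by complex. The range runs from about 2 for SEC61A2 to 228 for RPN1 in Tet-MIST1, and TRAM2 has its lowest level, 12.8, in Tet-MIST1.

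After induction of MIST1, 10 of the 33 genes were higher, among them SRPRB and SRP54 of the targeting step and SEC61B, SEC62, SEC63 and TRAM1 at the channel. With all libraries, 0 of the 8 OST genes analysed were called, which was not tested against the 20.6% called over all genes. Without Dox replicate 1 of Tet-MIST1, MAGT1 was called lower and STT3A higher. Dox was compared with Control by the edgeR quasi-likelihood test within each line, and a gene was called at an FDR under 0.05 over all genes tested. All 33 genes passed the filter on low counts. In Tet-MIST1, 10 of the 33 were higher (30.3%) and 0 were lower, while 20.6% of the 13623 genes tested were called, 11.9% higher and 8.77% lower. Counting genes of any FDR, 26 of 33 were higher with Dox and the median log2 change was 0.09, against -0.0036 over all genes. The 10 were SRPRB, SEC61B, SEC62, SRP54, SEC63, SPCS1, SSR3, SRP14, TRAM1 and SPCS3. In Tet-PTF1a, 19 of the 33 were called (57.6%), 16 higher and 3 lower, where 48.2% of the 14053 genes tested were called, 23.8% higher and 24.4% lower. In that line too, 26 of 33 were higher with Dox at any FDR, and the median log2 change was 0.07, against 0.0014 over all genes. In absolute terms the median log2 change was 0.09 over those 19 genes and 0.25 over the 10 of Tet-MIST1. Over all called genes it was 0.23 in Tet-PTF1a and 0.29 in Tet-MIST1. With all 24 libraries in one fit, which gives the lines one estimate of the spread, 4 genes were called in Tet-PTF1a (SRP68, SEC61A1, TRAM2 and MAGT1). Without Control replicate 1, 3 or 4 or Dox replicate 3 or 4, 6 genes were called in Tet-MIST1, and these were SRPRB, SEC61B, SEC62, SRP54, SEC63 and TRAM1 in each of the 5 fits.

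Dox alone gave no call. In Tet-One 0 of the 33 genes and 0 of all 13428 genes tested were called (0.0%) by edgeR, and DESeq2 called 0 of the 33. The study's own edgeR analysis at the same FDR limit reported a few changed genes in Tet-One. It reported fewer in Tet-MIST1 than were called here. At an unadjusted p under 0.05 there were 0 of the 33 and 401 of all genes in Tet-One. At any FDR, 18 of the 33 were higher with Dox in that line, and the median log2 change of the 33 was 0.01. Replicates spread most in Tet-One, where the biological coefficient of variation over all genes was 14.4% (4.79% without Dox replicate 1). It was 6.58% in Tet-MIST1 and 2.8% in Tet-PTF1a, so that a change of a given size was harder to detect in Tet-One. Called higher in both induced lines were 4 genes, SPCS3, SRP54, SRPRB and TRAM1, which are 4 of the 10 of Tet-MIST1 and 4 of the 16 of Tet-PTF1a. Over all 13296 genes tested in both lines, 434 (3.26%) were called higher in both and 394 (2.96%) were higher in Tet-MIST1 and lower in Tet-PTF1a. SEC63 and SPCS1 were higher in Tet-MIST1 and lower in Tet-PTF1a, and 10 genes were called in neither line (DAD1, SEC11A, SEC61A2, SPCS2, SRP19, SRP9, SSR1, SSR4, STT3A and STT3B).

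**Figure D2:**
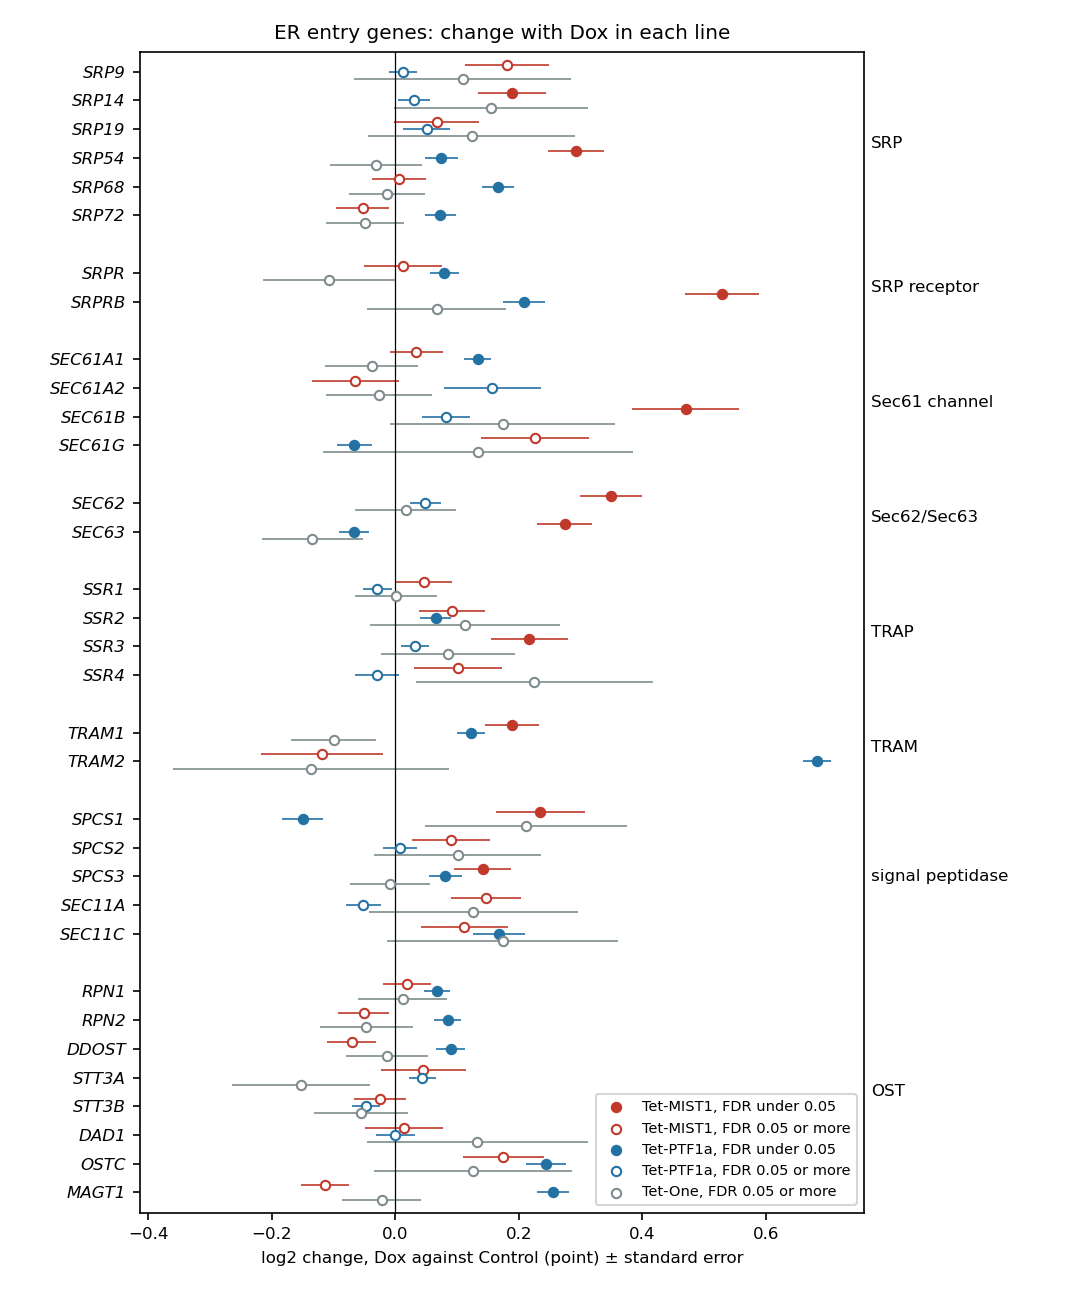
Log2 change of each gene with Dox in each line (point) with its standard error (bar), by complex, filled where FDR was under 0.05. The points of the 8 OST genes in Tet-MIST1 are all open, TRAM2 in Tet-PTF1a lies farthest to the right at 0.68, and no Tet-One point is filled.

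SRP targets the ribosome to the ER. Of its 6 genes, 2 were called in Tet-MIST1 (SRP54 and SRP14) and 3 in Tet-PTF1a (SRP54, SRP68 and SRP72). Over all genes tested, 20.6% were called in Tet-MIST1 and 48.2% in Tet-PTF1a, so that the 3 of 6 lay close to the share of that line. SRP54 (hg19 chromosome 14, 35452104 to 35498773, plus strand), the GTPase subunit that binds the signal sequence, had 82.9, 88.6, 85.5 and 86.3 CPM in the Tet-MIST1 Control libraries and 109, 101, 109 and 102 CPM with Dox. All Dox libraries lay above all Control libraries, and the log2 change was 0.29 (standard error 0.0457, FDR 0.00129). In Tet-PTF1a, SRP54 had 125, 123, 121 and 119 CPM in Control and 128, 133, 126 and 127 CPM with Dox. The groups did not overlap there either, but the change was 0.07 (FDR 0.0207) and was not called without Control replicate 4 or Dox replicate 2 (largest FDR 0.134). In Tet-One the values were 125, 113, 121 and 117 CPM in Control and 128, 110, 117 and 110 CPM with Dox, and the groups overlapped.

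SRP68, which with SRP72 binds the SRP RNA, was higher in Tet-PTF1a. SRP68 (chromosome 17, 74034856 to 74068607, minus strand) had 145, 154, 152 and 151 CPM in Control and 164, 172, 166 and 172 CPM with Dox, with no overlap and a log2 change of 0.17 (standard error 0.0257, FDR 3.46e-07). Its partner SRP72 was called as well, by 0.07 (FDR 0.0136), but not without Control replicate 3 (FDR 0.0539). In Tet-MIST1 SRP68 had 135, 129, 130 and 135 CPM in Control and 129, 128, 135 and 139 CPM with Dox. These groups overlapped, and neither SRP68 (0.01) nor SRP72 (-0.05) was called. Tet-One held SRP68 at 136, 145, 142 and 144 CPM in Control and 141, 138, 148 and 135 CPM with Dox, also with overlap. SRP14, which pairs with SRP9 in the Alu domain of the particle that slows translation, rose by 0.19 in Tet-MIST1 (FDR 0.0321), and its call was lost without Control replicate 1, 3 or 4 or Dox replicate 3 or 4 (largest FDR 0.104). SRP9 had a change of 0.18 in that line (FDR 0.0751), and SRP19, which assembles the particle, had one of 0.07 (FDR 0.501).

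The membrane subunit of the SRP receptor, SRPRB (chromosome 3, 133502877 to 133540336, plus strand), had the largest change of the 33 genes in Tet-MIST1. Its values were 79.8, 81.4, 74.4 and 82.1 CPM in Control and 125, 103, 116 and 115 CPM with Dox. Every Dox library was far above every Control library, and the change was 1.44-fold, 0.53 on the log2 scale (standard error 0.0595, 95% interval 0.41 to 0.65, FDR 1.3e-04). SRPRB was also higher in Tet-PTF1a, where it had 57.1, 59.9, 62.0 and 57.0 CPM in Control and 66.6, 66.6, 69.5 and 68.3 CPM with Dox, a log2 change of 0.21 (standard error 0.0336, FDR 8.11e-07). In Tet-One it had 62.0, 62.1, 57.9 and 64.7 CPM in Control and 80.4, 58.8, 62.1 and 57.1 CPM with Dox. Replicate 1 was the one Dox library above the Control range in Tet-One, and without it the log2 change was -0.06, against 0.07 with it. SRPR, the GTPase that meets SRP54, did not move with its partner in Tet-MIST1, with a change of 0.01 (FDR 0.9), and rose by 0.08 in Tet-PTF1a (FDR 0.00387). The SRPR and FAM118B genes overlap by 66 bases on opposite strands, and the strand use of the counting is not given in the sources used here.

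Sec61 is a channel of 3 subunits, and the small beta subunit SEC61B was called higher in Tet-MIST1 and the pore SEC61A1 in Tet-PTF1a. SEC61B (chromosome 9, 101984570 to 101992901, plus strand), 562 bases of exon long, had 59.7, 62.7, 59.8 and 63.7 CPM in Tet-MIST1 Control and 103, 73.5, 83.7 and 80.2 CPM with Dox. The groups did not overlap, Dox replicate 1 was the highest, and the log2 change was 0.47 (standard error 0.0864, FDR 0.00345). Without that library the change was 0.37 (FDR 3.66e-06), and after removal of the trend with exon length it was 0.31 (FDR 9.09e-05). In Tet-PTF1a SEC61B had 38.6, 39.3, 41.2 and 40.2 CPM in Control and 42.4, 41.9, 43.3 and 41.1 CPM with Dox. One Dox library fell just below the highest Control library, and the change of 0.08 was not called (FDR 0.0732). In Tet-One it had 45.6, 47.6, 45.6 and 48.2 CPM in Control and 77.6, 44.1, 44.8 and 44.5 CPM with Dox. Replicate 1 alone was high in Tet-One, and the log2 change there was 0.17 with it and -0.08 without it.

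SEC61A1 (chromosome 3, 127771212 to 127790526, plus strand), the pore, had 374, 363, 372 and 373 CPM in Tet-PTF1a Control and 407, 405, 399 and 414 CPM with Dox. The groups were apart, and the log2 change was 0.13 (standard error 0.0212, FDR 6.65e-07). Tet-MIST1 libraries had 525, 495, 507 and 503 CPM in Control and 503, 517, 519 and 540 CPM with Dox, and Tet-One libraries had 380.0, 410, 385 and 410.0 CPM in Control and 357, 404, 401 and 381 CPM with Dox. Both of these comparisons overlapped, with changes of 0.03 and -0.04. The change of SEC61A1 was not shown to differ between Tet-PTF1a and Tet-MIST1 (difference 0.11, FDR 0.0566) or Tet-One (0.17, FDR 0.146). The gamma subunit SEC61G was lower in Tet-PTF1a, with a log2 change of -0.07 (FDR 0.0461), a call that held only without Control replicate 4 when each of the 8 libraries was left out in turn (largest FDR 0.15). It had a change of 0.23 in Tet-MIST1 (FDR 0.0865). SEC61A2, at about 2 RPKM, had changes of -0.07 in Tet-MIST1 and 0.16 in Tet-PTF1a that were not called, and its gene overlaps NUDT5 by 59 bases on the opposite strand.

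SEC62 and SEC63 work as a pair beside the channel, where SEC63 recruits the chaperone BiP through its J domain, and both were higher in Tet-MIST1. SEC62 (chromosome 3, 169684580 to 169716161, plus strand) had 141, 158, 143 and 151 CPM in Control and 195, 185, 195 and 180 CPM with Dox, a log2 change of 0.35 (standard error 0.0502, FDR 7.56e-04). SEC63 (chromosome 6, 108188960 to 108279482, minus strand) had 182, 190, 179 and 184 CPM in Control and 213, 218, 236 and 222 CPM with Dox, a log2 change of 0.27 (standard error 0.0448, FDR 0.0017). In both genes all Dox libraries lay above all Control libraries. They have 6541 and 6500 bases of exon, and after the trend with exon length was removed their changes were 0.45 and 0.37.

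In Tet-PTF1a this pair did not rise. In Tet-PTF1a, SEC62 had 191, 199, 199 and 193 CPM in Control and 211, 195, 203 and 199 CPM with Dox, and the change was 0.05 (FDR 0.103). SEC63 had 245, 234, 231 and 225 CPM in Control and 227, 222, 222 and 221 CPM with Dox, a log2 change of -0.07 (FDR 0.0183). Its groups overlapped, since the highest Dox library stood above the lowest Control library. The call was lost without Control replicate 1 or Dox replicate 2 (largest FDR 0.144) and when CPM were scaled by library size alone (-0.03, FDR 0.301). In Tet-One, SEC62 had 123, 123, 127 and 122 CPM in Control and 143, 112, 124 and 122 CPM with Dox. SEC63 had 244, 214, 233 and 208 CPM in Control and 187, 205, 209 and 219 CPM with Dox in Tet-One. Both Tet-One comparisons overlapped, with changes of 0.02 and -0.14.

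TRAP, a neighbour of the channel that aids weak signal sequences, had 1 of its 4 genes called in each induced line, SSR3 in Tet-MIST1 (where 20.6% of all genes were called) and SSR2 in Tet-PTF1a (where 48.2% were). The difference between these lines passed the test for 0 of the 4 (SSR3 -0.18, FDR 0.0589, and SSR2 -0.02, FDR 0.85). SSR3 (chromosome 3, 156257342 to 156272989, minus strand), its gamma subunit, had 212, 221, 209 and 213 CPM in Tet-MIST1 Control and 280.0, 222, 250 and 242 CPM with Dox, a log2 change of 0.22 (FDR 0.0311). The lowest Dox library barely cleared the highest Control library, and the call was lost without any one Control replicate or Dox replicate 3 or 4 (largest FDR 0.0928). Without Dox replicate 1, the highest, the change was 0.16 (FDR 0.00937). In Tet-PTF1a SSR3 had 249, 254, 247 and 248 CPM in Control and 245, 256, 258 and 260 CPM with Dox, with overlap and a change of 0.03. In Tet-One it had 181, 192, 189 and 189 CPM in Control and 246, 176, 190 and 184 CPM with Dox, with replicate 1 again the highest.

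SSR2 (chromosome 1, 155978839 to 155990758, minus strand), the beta subunit, was the TRAP gene called in Tet-PTF1a. It had 157, 156, 158 and 158 CPM in Control and 165, 163, 159 and 172 CPM with Dox, a log2 change of 0.07 (FDR 0.0311) that was lost without Control replicate 2 or Dox replicate 1 or 4 (largest FDR 0.217). The lowest Dox library was only just above the highest Control library. Tet-MIST1 libraries had 228, 238, 228 and 239 CPM in Control and 274, 234, 239 and 248 CPM with Dox, with overlap. Tet-One libraries had 240.2, 237, 222 and 238 CPM in Control and 348, 226, 227 and 211 CPM with Dox, where replicate 1 alone was high. SSR1 (0.05 in Tet-MIST1 and -0.03 in Tet-PTF1a) and SSR4 (0.10 and -0.03) were called in neither line, and SSR4 shares 164 bases with IDH3G on the opposite strand.

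TRAM1 and TRAM2 encode membrane proteins beside the channel, and TRAM2 had the largest change of any gene of the group in Tet-PTF1a. TRAM2 (chromosome 6, 52362200 to 52441862, minus strand) had 176, 170.0, 167 and 169 CPM in Control and 273, 272, 274 and 278 CPM with Dox. The Dox libraries lay close to each other and far above every Control library, a 1.61-fold change of 0.68 on the log2 scale (standard error 0.0231, 95% interval 0.64 to 0.73, FDR 6.08e-30). In Tet-MIST1 it had 95.6, 89.5, 90.8 and 84.9 CPM in Control and 63.1, 91.7, 88.1 and 89.4 CPM with Dox. Replicate 1 was low and the other Dox libraries lay in the Control range, so that the log2 change was -0.12 (FDR 0.402) with it and -0.01 (FDR 0.935) without it. In Tet-One it had 224, 203, 217 and 207 CPM in Control and 103, 229, 221 and 221 CPM with Dox. Replicate 1 was again the low one, and the change was -0.14 with it and 0.07 without it.

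TRAM1 (chromosome 8, 71485453 to 71520694, minus strand) was higher in both induced lines. It had 161, 168, 160.0 and 153 CPM in Tet-MIST1 Control and 180.1, 185, 189 and 177 CPM with Dox, a log2 change of 0.19 (standard error 0.0441, FDR 0.0121). In Tet-PTF1a it had 216, 218, 216 and 215 CPM in Control and 230.3, 237, 239 and 236 CPM with Dox, a log2 change of 0.12 (FDR 8.87e-06). The groups did not overlap in either line. In Tet-One TRAM1 had 124, 119, 127 and 120.1 CPM in Control and 106, 111, 120 and 121 CPM with Dox, with overlap. Since TRAM2 rose by more than TRAM1 in Tet-PTF1a, the ratio of TRAM1 to TRAM2 per length fell from 2.89 ± 0.064 in Control to 1.96 ± 0.0342 with Dox (SD, n = 4), and no library of one group came near the other (2.80 to 2.94 against 1.92 to 1.99).

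**Figure D3:**
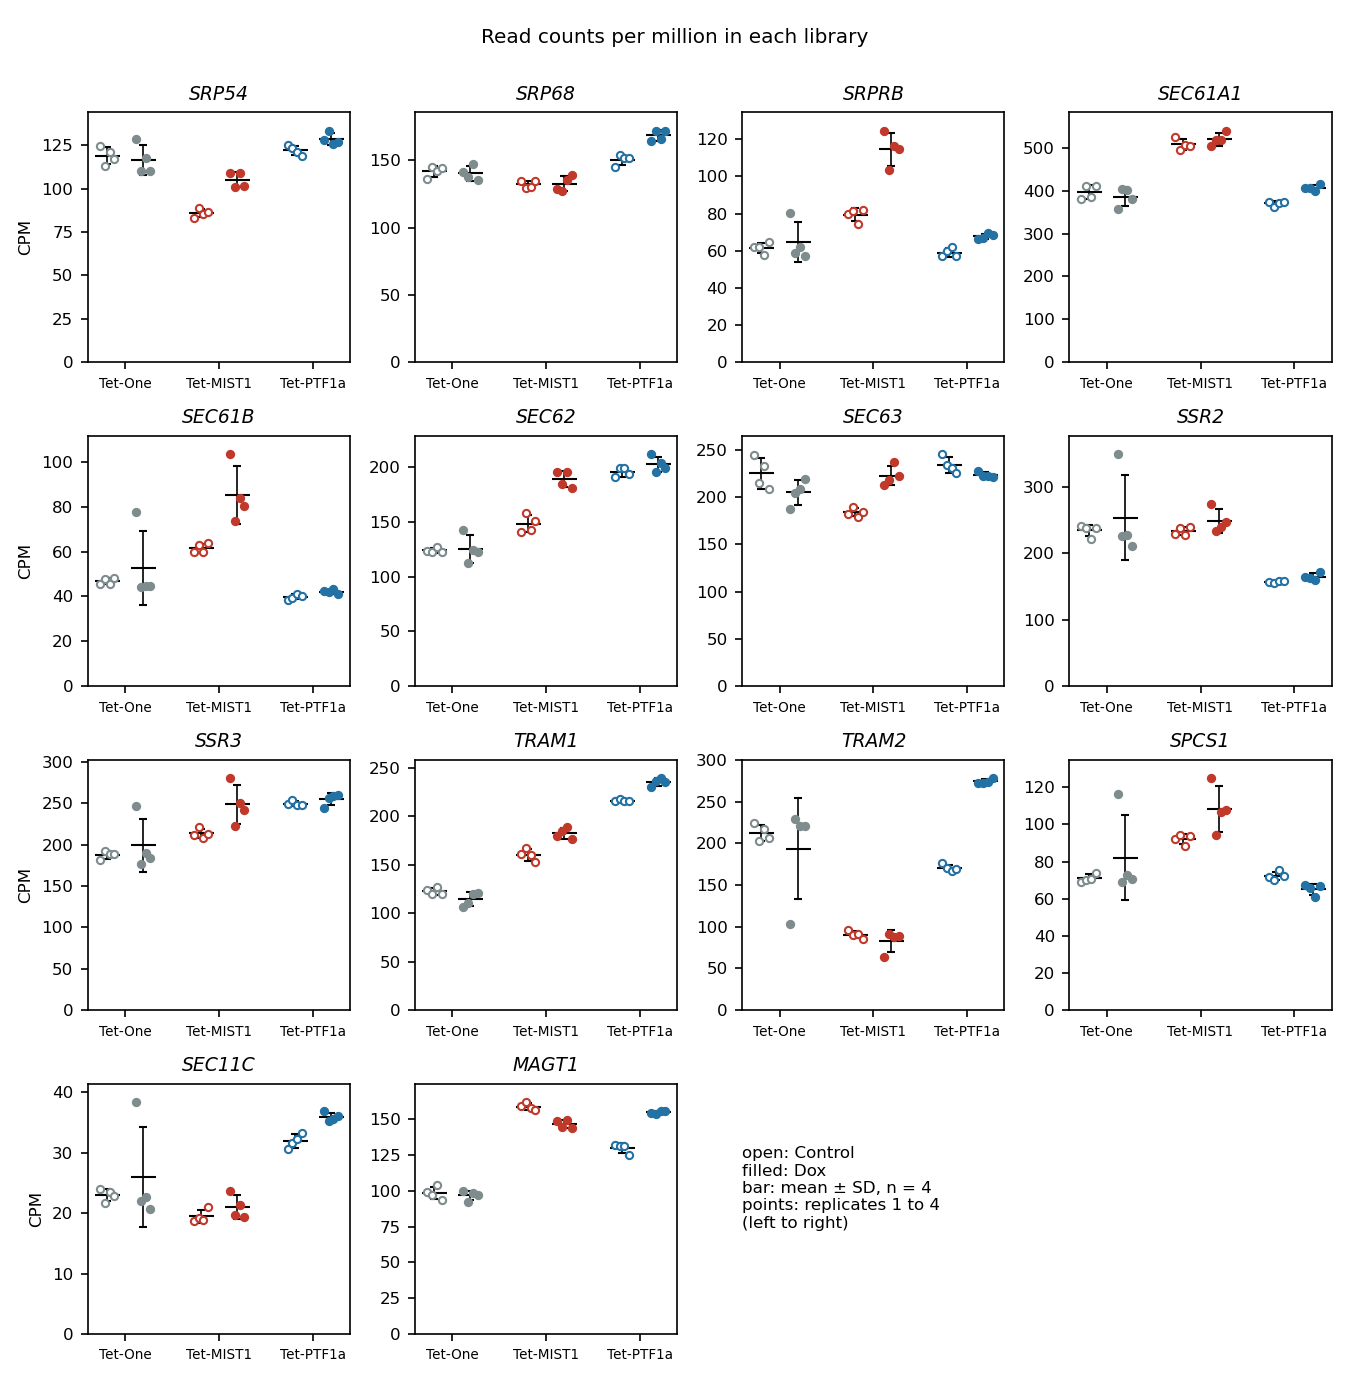
CPM in each of the 24 libraries for the 14 genes given library by library, with replicates 1 to 4 from left to right in each group and the group mean ± SD (n = 4). TRAM2 in Tet-PTF1a moves from 171 to 274, SRPRB in Tet-MIST1 from 79.4 to 115, and Dox replicate 1 of Tet-One stands apart for SEC61B, SSR2, TRAM2, SPCS1 and SEC11C.

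Signal peptidase cuts the signal sequence through SEC11A or SEC11C, and the accessory subunit SPCS1 changed in opposite directions in the 2 lines. SPCS1 (chromosome 3, 52739857 to 52742197, plus strand) had 92.0, 94.1, 88.3 and 93.7 CPM in Tet-MIST1 Control and 125, 94.1, 107 and 108 CPM with Dox, a log2 change of 0.23 (standard error 0.0719, FDR 0.0388). The lowest Dox library was level with the highest Control library, and the call was lost without any one Control replicate or Dox replicate 3 or 4 (largest FDR 0.113). Without Dox replicate 1 the change was 0.16 (FDR 0.015). In Tet-PTF1a SPCS1 had 71.8, 70.1, 75.2 and 72.1 CPM in Control and 67.3, 65.6, 60.8 and 66.6 CPM with Dox. All Dox libraries were lower, with a log2 change of -0.15 (standard error 0.0333, FDR 1.75e-04). In Tet-One it had 69.1, 70.0, 70.4 and 74.0 CPM in Control and 116, 69.0, 72.8 and 70.5 CPM with Dox, where replicate 1 alone was high. The SPCS1 change of 0.21 in Tet-One was not shown to differ from that of Tet-MIST1 (difference 0.02, FDR 0.994). That change rested on replicate 1, and without it the log2 change in Tet-One was -0.01 (FDR 0.969). The gene shares 243 bases with GLT8D1 on the opposite strand, and reads of the overlap cannot be assigned where strand was not used.

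SEC11C (chromosome 18, 56807089 to 56826069, plus strand), a catalytic subunit, rose in Tet-PTF1a. Its values were 30.7, 31.6, 32.4 and 33.4 CPM in Control and 36.9, 35.3, 35.5 and 36.1 CPM with Dox, with no overlap and a log2 change of 0.17 (standard error 0.0417, FDR 6.93e-04). In Tet-MIST1 SEC11C had 18.8, 19.1, 18.9 and 21.1 CPM in Control and 23.6, 19.7, 21.4 and 19.3 CPM with Dox, and in Tet-One it had 24.03, 21.7, 23.4 and 22.9 CPM in Control and 38.4, 22.0, 22.7 and 20.8 CPM with Dox. Both overlapped, and replicate 1 was the highest Dox library in both. The other catalytic subunit, SEC11A, had changes of 0.15 in Tet-MIST1 (FDR 0.0826) and -0.05 in Tet-PTF1a (FDR 0.136). Per length, the ratio of SEC11A to SEC11C went from 1.74 ± 0.0823 to 1.49 ± 0.0571 in Tet-PTF1a (SD, n = 4). SPCS3, an accessory subunit, rose by 0.14 in Tet-MIST1 (FDR 0.049) and by 0.08 in Tet-PTF1a (FDR 0.0116). The first of these calls held only without Dox replicate 2 when each library was left out in turn (largest FDR 0.147), and the second was lost without Control replicate 3 or Dox replicate 4 (largest FDR 0.0761). SPCS2 was called in neither line, with 0.09 and 0.01.

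Of the 8 OST genes, 5 were called higher in Tet-PTF1a and 0 in Tet-MIST1. The difference between the 2 lines passed the test for 3 of the 8 (MAGT1, DDOST and RPN2). Over all genes tested, 23.8% were called higher in Tet-PTF1a, 11.9% were called higher in Tet-MIST1 and 36.4% differed between the 2 lines. The 3 of 8 lay close to that last share. MAGT1 (chromosome X, 77081862 to 77151065, minus strand), an oxidoreductase subunit of the STT3B form of OST, had 132, 132, 131 and 125 CPM in Tet-PTF1a Control and 154, 154, 156 and 156 CPM with Dox. The groups were well apart, and the log2 change was 0.26 (standard error 0.0259, 95% interval 0.21 to 0.31, FDR 6.03e-12). In Tet-MIST1 it had 159, 162, 158 and 156 CPM in Control and 149, 145, 150 and 144 CPM with Dox. Here all Dox libraries were lower, and the change of -0.11 was just short of a call (FDR 0.0549). It was called without Dox replicate 1 (-0.12, FDR 0.0256) and with scaling by library size alone (-0.12, FDR 0.0427). In Tet-One MAGT1 had 98.8, 96.8, 104 and 93.9 CPM in Control and 99.6, 92.2, 98.8 and 96.9 CPM with Dox, with overlap.

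The other OST genes called in Tet-PTF1a were OSTC, a subunit of the STT3A form, by 0.24 (standard error 0.0324, FDR 1.15e-08), and the shared subunits DDOST by 0.09 (FDR 9.95e-04), RPN2 by 0.08 (FDR 0.00128) and RPN1 by 0.07 (FDR 0.006). In Tet-MIST1 their changes were 0.17 for OSTC (FDR 0.0774, difference between the lines 0.08, FDR 0.444), -0.07 for DDOST, -0.05 for RPN2 and 0.02 for RPN1 (FDR of the difference 0.286). With all libraries the catalytic subunits were called in neither line: STT3A had 0.05 in Tet-MIST1 and 0.04 in Tet-PTF1a, and STT3B had -0.03 and -0.05. Without Tet-MIST1 Dox replicate 1, STT3A was called higher in that line, by 0.12 (FDR 0.0357). The ratio of STT3A to STT3B per length was 1.10 ± 0.0157 in Tet-PTF1a Control and 1.17 ± 0.00849 with Dox (SD, n = 4). DAD1, a small shared subunit, had 0.01 in Tet-MIST1 and 0.0001 in Tet-PTF1a. DDOST shares 427 bases with PINK1-AS on the same strand and RPN2 shares 147 bases with MROH8 on the opposite strand.

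A call in one line and none in the other does not show that the lines differ, so the difference between the log2 changes was tested over the 16 libraries of both lines. Between Tet-PTF1a and Tet-MIST1, 14 of the 33 genes responded differently (42.4%), where 36.4% of 13519 genes did (17.8% with the larger and 18.6% with the smaller change in Tet-PTF1a). In 6 the change was larger in Tet-PTF1a: TRAM2, MAGT1, DDOST, SRP68, RPN2 and SRP72. In 8 it was smaller: SEC61B, SPCS1, SEC63, SRPRB, SEC62, SEC61G, SRP54 and SEC11A. Of these, SEC61B, SPCS1, SEC61G and SEC11A have under 2 kb of exon. Among all 3154 genes of that length, 788 were called with the smaller and 174 with the larger change in Tet-PTF1a. The difference was 0.82 for TRAM2 (95% interval 0.61 to 1.02, FDR 6.5e-06) and 0.38 for MAGT1 (0.29 to 0.47, FDR 8.29e-07). For DDOST it was 0.17 (FDR 0.00523), for SRP68 0.17 (FDR 0.0109), for RPN2 0.15 (FDR 0.0139) and for SRP72 0.14 (FDR 0.0304). The 3 OST genes of the 14 (MAGT1, DDOST and RPN2) all had the larger change in Tet-PTF1a.

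SEC63 and SEC62 had differences of -0.33 (95% interval -0.43 to -0.23, FDR 3.61e-05) and -0.29 (-0.40 to -0.17, FDR 5.93e-04). The difference was -0.38 for SEC61B (-0.58 to -0.17, FDR 0.00764), -0.38 for SPCS1 (-0.55 to -0.21, FDR 0.00191) and -0.32 for SRPRB (-0.46 to -0.17, FDR 0.00164), and SRP54 had -0.21 (FDR 0.00459). For SEC61G it was -0.28 (FDR 0.0347) and for SEC11A -0.19 (FDR 0.0298). The 9 genes SRP54, SRPRB, SEC61B, SEC62, SEC63, TRAM2, SPCS1, DDOST and MAGT1 were called in each of the 16 fits that left out a library and in the other 7 settings. SRP72 was lost without Tet-MIST1 Control replicate 2, any Tet-PTF1a Dox replicate or Tet-PTF1a Control replicate 1, 3 or 4 (largest FDR 0.112). SEC61G was lost without Tet-PTF1a Control replicate 1 or 2, Tet-MIST1 Control replicate 1 or 3 or Tet-MIST1 Dox replicate 3 (0.0737). SEC11A was lost without Tet-PTF1a Control replicate 2 or Tet-MIST1 Control replicate 1 or 3 (0.0681), RPN2 without Tet-PTF1a Control replicate 4 or Dox replicate 2 or 4 (0.0712) and SRP68 without Tet-PTF1a Dox replicate 2 (0.0519). With the replicate block, SEC61G, SEC11A and SRP72 were also lost (FDR 0.0834, 0.0826 and 0.0825). After removal of the exon length trend they were lost as well (FDR 0.213, 0.15 and 0.0977). Under scaling by library size alone, SEC11A was lost (FDR 0.0538).

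**Figure D4:**
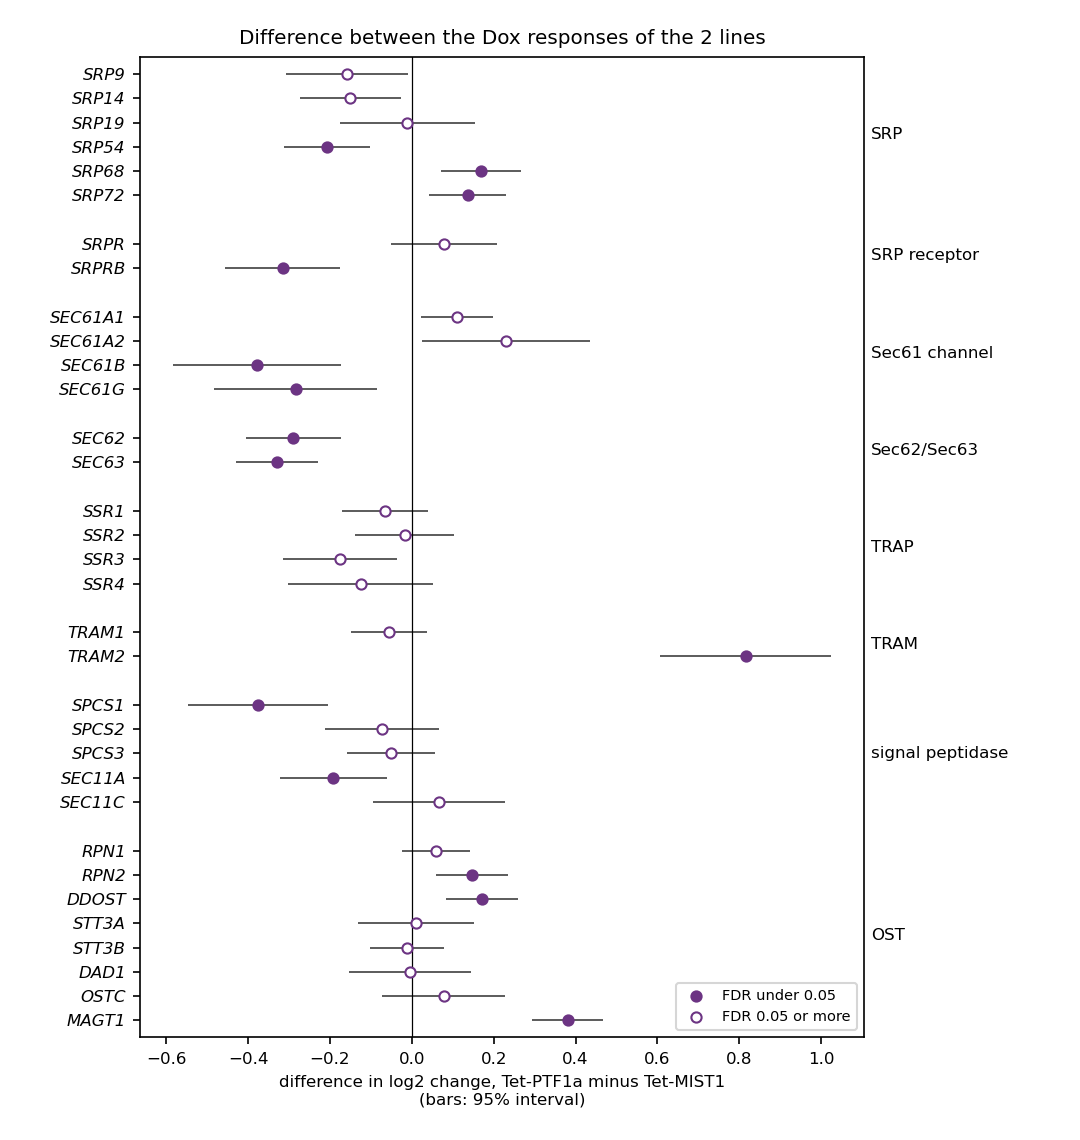
Difference between the log2 changes of Tet-PTF1a and Tet-MIST1 for each gene with its 95% interval, filled where FDR was under 0.05. TRAM2 (0.82) and MAGT1 (0.38) lie to the right, and SEC61B and SPCS1 (both -0.38) lie farthest to the left.

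Against the response of Tet-One cells, few genes differed while all libraries were used. Tet-MIST1 and Tet-One differed in 1 of the 33 (3.03%, against 1.66% of 13879 genes, 1.48% with the larger change in Tet-MIST1 and 0.187% with the smaller), SEC63, with a difference of 0.40 (95% interval 0.23 to 0.58, FDR 0.0301). It was lost without Tet-MIST1 Control replicate 1, 3 or 4, Tet-MIST1 Dox replicate 3 or 4, Tet-One Control replicate 1 or 3 or Tet-One Dox replicate 2 (largest FDR 0.0814). The next smallest FDR values were 0.0647 for SRP54 (0.32), 0.0826 for TRAM1 (0.28) and 0.108 for SRPRB (0.46). Without Tet-One Dox replicate 1, 12 of the 33 differed, all with the larger change in Tet-MIST1, where 13.9% of all genes did. These included SRPRB (0.59, FDR 8e-05), SEC62 (0.41, FDR 8.01e-04) and SRP54 (0.38, FDR 9.23e-04). SEC61B was among them with 0.55 (FDR 0.00202), while with all libraries its difference was 0.29 (95% interval -0.13 to 0.71, FDR 0.735). Dox replicate 1 of Tet-MIST1 stayed in this fit, and 6 of the 11 genes of the group under 2 kb of exon differed. Of all genes that short, 14.5% differed, 445 genes with the larger and 39 with the smaller change in Tet-MIST1. With Dox replicate 1 of both lines left out, a setting chosen after the data were seen, 13 differed, against 16% of all genes.

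Tet-PTF1a and Tet-One differed in 3 of the 33 (9.09%, against 12.8% of 13519 genes, 5.52% with the larger and 7.32% with the smaller change in Tet-PTF1a). They were TRAM2 with 0.82 (95% interval 0.35 to 1.29, FDR 0.0329), MAGT1 with 0.28 (0.15 to 0.40, FDR 0.00707) and TRAM1 with 0.22 (0.09 to 0.35, FDR 0.0408). MAGT1 was called in every fit that left out a library, while TRAM2 and TRAM1 were lost without any of the 8 Tet-PTF1a libraries or Tet-One Control replicate 1 or 3, and TRAM1 also without Tet-One Dox replicate 2 (largest FDR 0.063 and 0.0846). Without Tet-One Dox replicate 1, 15 of the 33 differed (14 larger and 1 smaller in Tet-PTF1a), where 30.7% of all genes did, and the difference of TRAM2 was 0.62 (FDR 4.84e-12). The comparisons with Tet-One share its 8 libraries.

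Values of short genes moved with Dox replicate 1. Of the 33 genes, 11 have under 2 kb of exon (SRP9, SRP14, SEC61B, SEC61G, SSR2, SSR4, SPCS1, SEC11A, SEC11C, DAD1 and OSTC) and 22 have more. In Tet-One all 11 had positive log2 changes, at a median of 0.13, the same as the median of 0.13 over all 3207 genes of that length. Without Dox replicate 1, 0 of the 11 had, and the median was -0.08, against -0.03 over all such genes. In that library the 11 genes lay at a median of 0.76 above the mean of the other Dox libraries. In each of the others they lay at -0.28 to -0.19, against a mean that includes Dox replicate 1. In Tet-MIST1 all 11 had positive changes, at a median of 0.17, against 0.10 over 3255 short genes. With Dox replicate 1 left out, 10 of the 11 did, and the medians were 0.11 and 0.05.

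The 22 longer genes of the group had a median log2 change of 0.04 in Tet-MIST1, against -0.03 over all genes of 2 kb or more, and 7 of them were called higher (31.8% called, against 21.1%). Without Dox replicate 1 their median was 0.03, with 7 higher and 1 lower (MAGT1), 36.4% called against 26.6% of all such genes. SPCS3 was no longer among the 7 (FDR 0.0504) and STT3A was (FDR 0.0357). When the trend with exon length was removed from each library, 8 of the 33 were called higher and 2 lower in Tet-MIST1. The 2 lower genes were DDOST (-0.12, FDR 0.0337) and DAD1 (-0.13, FDR 0.0205), and SRP14 and SPCS1 were no longer called higher. The 8 higher genes in that setting were SRP54, SRPRB, SEC61B, SEC62, SEC63, SSR3, TRAM1 and SPCS3. In Tet-PTF1a the short genes of the group had a median of 0.01, against -0.01 over all short genes, and 3 of the 11 were called higher and 2 lower (45.5%, against 39.7% of all short genes). The part of exonic length in the values of single genes was not tested.

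**Figure D5:**
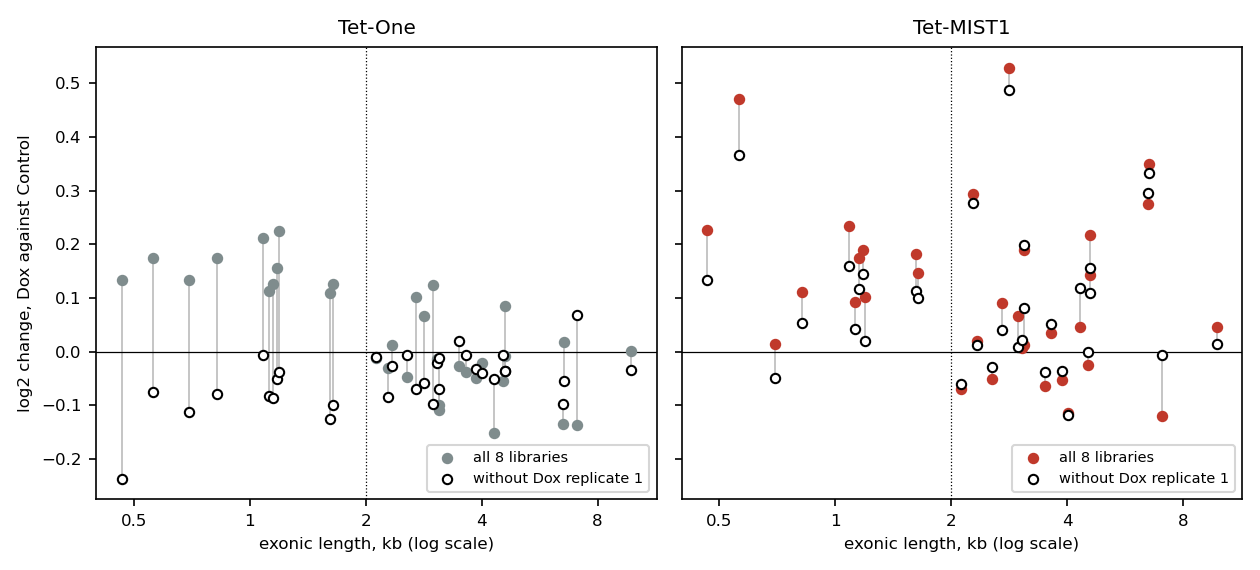
Log2 change of each gene against its exonic length in kb (log axis) in Tet-One and Tet-MIST1, with all 8 libraries (filled) and without Dox replicate 1 (open). In Tet-One the genes left of the dotted line at 2 kb move from above 0 to below 0, and in Tet-MIST1 SEC61B, the highest short gene, moves from 0.47 to 0.37.

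Other genes of the pathway were counted from 5 lists, 64 genes in all, and each was tested. Tet-MIST1 had 17 of them higher and 0 lower, where 11.9% of all genes tested were higher and 8.77% lower. Lipid-linked oligosaccharide synthesis, which builds the sugar chain that OST transfers, had 9 of 26 genes higher in that line, with a median log2 change of 0.09. The largest were ALG9, an ER mannosyltransferase, by 0.79 (FDR 3.29e-06), and DPM1 and DPM2, subunits of the enzyme that makes dolichol phosphate mannose, by 0.54 (FDR 0.00102) and 0.53 (FDR 1.08e-04). The ER membrane protein complex, an insertase for membrane proteins, had 3 of 10 genes higher, other translocon partners had 3 of 18, insertion of tail-anchored proteins had 1 of 7, and the other OST subunits had 1 of 3. In Tet-PTF1a, 20 of the 64 were higher and 10 lower, where 48.2% of all genes were called, 23.8% higher and 24.4% lower. Oligosaccharide synthesis had 6 higher and 4 lower there, with DPM2 higher by 0.51 (FDR 9.65e-13), and the translocon partners had 9 higher and 3 lower. The membrane protein complex had 3 higher and 1 lower, tail-anchored insertion 2 and 2, and the other OST subunits 0 and 0. In Tet-One 0 of the 64 were called by edgeR, and 0 had an unadjusted p under 0.05.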

How the data were processed

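Per the study's methods, TopHat was used for alignment to hg19, and the submitters' processing notes also name HTSeq, DESeq and edgeR. The authors deposited, for each line, read counts per gene without normalization, the exonic length, and columns of scaled CPM, log2 fold change, p-value and FDR that were not used here. The counter's annotation and strand use are not given in the sources used here. From the deposited counts, CPM were computed with TMM factors within each line, and RPKM from these and the listed length. Genes above 0.5 CPM in at least 4 libraries were tested with edgeR 4.0.16 (glmQLFit, robust, and glmQLFTest, R 4.3.3), Benjamini-Hochberg adjusted over all genes tested. Log2 changes use a prior count of 2, and 95% intervals are normal intervals from the standard error. The p-values and intervals rest on the spread between replicates within groups, estimated with information from all genes. They do not cover variation between clones. The difference between lines was the line by Dox interaction over 16 libraries. Replicates were compared by chi-square in 36 pairs (1.38 to 236 per degree of freedom) and each counted once. The tests were first checked on simulated counts.

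Library by library values are given for SEC61B, SEC62 and SEC63, which the study examined, for the called gene with the largest change in each complex and line, for genes called in opposite directions, and for interactions of at least 0.5 (log2). Genes of the other lists are named where called with a change of at least 0.5. The genes, lists and rules were chosen with earlier results of these data known. Alternatives were scaling by library size alone, no filter, at least 10 counts in every library, DESeq2 1.42.0, a replicate block, removal of the exon length trend, all 24 libraries in one fit, and each library left out. Gene names changed to dates, 20 per line, were kept unaltered.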

Additional observations from a re-analysis of the deposited data

Results flagged for a closer look

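A library was singled out where its gap to the nearest of the other 3 of its group was a larger part of the group's range than Dixon's 95% critical value, for the 14 genes given library by library. This held in 10 cases among 84 groups, and chance gives about 1 in 20 groups. Dox replicate 1 of Tet-One was apart for SEC61B (77.6 CPM), SSR2 (348 CPM), SPCS1 (116 CPM) and SEC11C (38.4 CPM), where it was the highest, and for TRAM2 (103 CPM), where it was the lowest. Dox replicate 1 of Tet-MIST1 was apart for TRAM2 (63.1 CPM, the lowest). SEC61B, SSR2, SPCS1 and SEC11C have under 2 kb of exon and TRAM2 has 7057 bases, and in both libraries all short genes were high and all long genes low at the median. The other cases were SSR2 in Tet-One Control replicate 3 (222 CPM, the lowest), SEC63 in Tet-PTF1a Dox replicate 1 (227 CPM, the highest), SEC11C in Tet-MIST1 Control replicate 4 (21.1 CPM, the highest) and MAGT1 in Tet-PTF1a Control replicate 4 (125 CPM, the lowest). Without that library the MAGT1 call in Tet-PTF1a held, and so did the SEC63 call without its Dox replicate 1.

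Changes that differed between lines in the interaction test were 1 gene for Tet-MIST1 against Tet-One (SEC63, 0.40), and 3 for Tet-PTF1a against Tet-One (TRAM2 0.82, MAGT1 0.28 and TRAM1 0.22). For Tet-PTF1a against Tet-MIST1 the difference in log2 change was 0.82 in TRAM2, 0.38 in MAGT1, 0.17 in SRP68, 0.17 in DDOST, 0.15 in RPN2 and 0.14 in SRP72. It was -0.38 in SEC61B, -0.38 in SPCS1, -0.33 in SEC63, -0.32 in SRPRB, -0.29 in SEC62, -0.28 in SEC61G, -0.21 in SRP54 and -0.19 in SEC11A.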

How the results depend on the processing

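Of 3894 values of single genes recomputed over 33 settings, 3646 kept their direction where called and their side of the FDR limit, 96 gained and 137 lost a call, and 15 were called with the other sign. A change of sign in a value that was called in neither setting was counted with those that kept theirs. The cause of the changes was not tested, except where fewer libraries entered.

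The number of genes called in Tet-MIST1, 10, was 6 with the replicate block and 6 to 14 with 1 library left out, and its split of 10 higher and 0 lower was 8 and 2 after removal of the length trend. In Tet-PTF1a, 19 were called, 4 with all 24 libraries in one fit, and 16 to 19 with 1 library left out, and the split of 16 higher and 3 lower was 23 and 1 under scaling by library size alone. For Tet-MIST1 against Tet-One the number, 1, was 4 with library size, 0 with the replicate block, 5 without the length trend, 3 without it and with the block, 5 with DESeq2, 0 to 12 with 1 library left out, and 13 with Dox replicate 1 of both lines left out. For Tet-PTF1a against Tet-One, 3, it was 1 with the block, 9 without the length trend, 7 without it and with the block, 5 with DESeq2 and 1 to 15 with 1 library left out. For Tet-PTF1a against Tet-MIST1 it was 14, and 12 to 17 with 1 library left out, with a split of 6 larger and 8 smaller that became 10 and 7 without the length trend. Tet-One stayed at 0 in all settings.

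The main tests used no replicate block. The deviations of same-numbered Control and Dox libraries correlated at -0.314 to 0.226, while those of Control replicate 4 and Dox replicate 1 of Tet-MIST1 correlated at 0.47. These deviations include the trend with exon length, so they cannot decide whether same-numbered cultures were paired. The block gave 18 calls in Tet-PTF1a and 11 between Tet-PTF1a and Tet-MIST1.

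The sign turned, with a call, for DAD1 in Tet-MIST1 without the length trend (-0.13). In the difference between Tet-PTF1a and Tet-One, it turned without Tet-One Dox replicate 1, and with 1 library left out the values ran from -0.18 to 0.14 for SRP9, from -0.17 to 0.16 for SEC61B, from -0.33 to 0.17 for SEC61G, from -0.13 to 0.15 for SSR2 and from -0.10 to 0.25 for SEC11C. It also turned without the length trend for SEC61B (0.20), SSR2 (0.14) and SEC11C (0.24), and without the trend and with the block for SEC61B (0.19) and SEC11C (0.24). Between Tet-PTF1a and Tet-MIST1 it turned for SSR2 (0.12 without the trend, 0.12 with the block as well) and DAD1 (0.18 and 0.18). With 4 libraries a group, the smallest called change was 0.14 in Tet-MIST1 (SPCS3) and 0.07 in Tet-PTF1a (SSR2).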
